A study of Mus musculus with 4 samples.

Results

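The transcripts of p53 and of 9 genes that p53 is known to switch on under stress were examined in leukemia cells with and without re-expressed IRF4. The 10 genes were *Trp53*, *Trp53inp1*, *Cdkn1a*, *Mdm2*, *Ccng1*, *Sesn1*, *Zmat3*, *Phlda3*, *Eda2r* and *Btg2*. They were chosen by name, as p53 itself and well-known genes of its stress response. Earlier results of these data were known when these genes and the gene lists below were chosen. The chosen genes are 10 of the 55359 genes counted, and 9 of them were among the 14637 genes with enough reads to be tested. The exception was *Eda2r*. The study transduced T8 cells, a line grown from the tumor of an *Irf4*-/- mouse with precursor B-cell leukemia, with retrovirus (RV). RNA of the cells still viable a day later was sequenced. The control group, EV-RV, received an empty vector encoding GFP alone, and the test group, IRF4-RV, received a vector encoding GFP plus IRF4. Both groups carry the *Irf4* deletion and each holds 2 libraries, described as biological replicates. T8 derives from 1 tumor, and the line was first grown on irradiated ST2 stromal cells before it grew without them. The comparison asks how the p53 response genes stand when IRF4 is returned to these cells.

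p53, encoded by *Trp53*, is a transcription factor that is held at a low level because MDM2, the product of one of its own target genes, marks it for degradation. DNA damage, oncogene activity and other stress release p53 from MDM2, mostly through the protein rather than its mRNA, and p53 then activates genes for cell cycle arrest, repair, antioxidant defense and apoptosis. Several of these genes also answer to other factors, among them FOXO proteins, and in precursor B cells the same genes act where proliferation gives way to differentiation. IRF4 is a transcription factor that drives that step and binds interferon response elements and, with PU.1, composite elements.

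The sequences in front of 4 members with differing outcomes are shown. *Btg2* rose, *Mdm2* rose slightly, *Phlda3* fell, and *Cdkn1a*, the classical p53 target, did not pass the test. Whether these sequences bear on the outcomes was not tested. Each is the 250 bases before a RefSeq transcription start, on GRCm38.p6, written 5′ to 3′ on the gene's strand, and capitals mark matches to the p53 half-site, the 10-base unit that occurs as a pair in p53 response elements. The windows are *Btg2* at chr1:134079156-134079405 (minus strand), *Mdm2* at chr10:117710759-117711008 (minus strand), *Phlda3* at chr1:135765835-135766084 (plus strand) and *Cdkn1a* at chr17:29090729-29090978 (plus strand, the more upstream of its 2 starts).
Btg2: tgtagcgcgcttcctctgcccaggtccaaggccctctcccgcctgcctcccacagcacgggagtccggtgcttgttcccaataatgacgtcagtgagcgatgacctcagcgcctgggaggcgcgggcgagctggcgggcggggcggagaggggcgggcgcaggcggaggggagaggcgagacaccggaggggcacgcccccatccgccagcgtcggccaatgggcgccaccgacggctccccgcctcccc
Mdm2: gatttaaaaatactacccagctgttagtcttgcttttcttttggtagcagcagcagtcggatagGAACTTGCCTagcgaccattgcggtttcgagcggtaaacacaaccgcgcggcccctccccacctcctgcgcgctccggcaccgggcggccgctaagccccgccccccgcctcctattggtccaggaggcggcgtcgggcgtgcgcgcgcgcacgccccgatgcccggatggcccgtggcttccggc
Phlda3: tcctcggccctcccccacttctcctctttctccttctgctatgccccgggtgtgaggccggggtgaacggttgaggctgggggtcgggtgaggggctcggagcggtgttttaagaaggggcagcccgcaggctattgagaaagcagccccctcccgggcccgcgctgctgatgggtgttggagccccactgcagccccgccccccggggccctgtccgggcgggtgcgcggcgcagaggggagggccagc
Cdkn1a: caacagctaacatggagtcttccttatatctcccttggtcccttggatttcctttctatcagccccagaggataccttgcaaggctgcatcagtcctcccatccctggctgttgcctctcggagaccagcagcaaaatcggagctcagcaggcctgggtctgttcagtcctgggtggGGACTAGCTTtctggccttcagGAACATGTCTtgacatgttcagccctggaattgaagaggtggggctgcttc
RefSeq windows matched 8 of the 10 members, in 10 windows, and *Trp53inp1* and *Zmat3* had none. On either strand, the p53 half-site matched 2 times in this *Cdkn1a* window and 1 time each in windows of *Mdm2*, *Ccng1*, *Trp53* and *Sesn1*, and was not found in those of *Btg2*, *Phlda3* or *Eda2r*. Over all 32851 promoter windows of this length, 7.13% held it. The interferon response core GAAANNGAAA and the PU.1 composite element GGAANNGAAA, also read on both strands, were found in 0 of the 10 member windows. Over all windows the shares were 2.98% and 2.30%, so low that 0 matches in 10 windows says little about the members. The motifs overlap in their second part. A match in 250 bases is a description of letters, and p53 also acts from sites farther away.

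Libraries held 31230223 to 37817752 counts, and mitochondrial genes took 1.98% to 3.09% of them. Levels in CPM are counts per 1000000 of the library size after TMM normalization, and a gene is called changed at an FDR of 0.1. *Irf4* (ENSMUSG00000021356) stood at 242 and 241 CPM in EV-RV and 2822 and 2491 in IRF4-RV cells, a log2 fold change of 3.46 (SE 0.0907, adjusted p = 1.14e-06, edgeR with Benjamini-Hochberg adjustment). Reads from the vector and from the deleted locus were not separated, so these counts check the transduction and not the deletion. Whether the cells were sorted for GFP is not stated for these libraries, so the share of transduced cells in each is not known. Of the pre-B cell markers, 9 of 10 were detected well enough to test, and *Rag1* was near 0, with at most 1 count per library. The 10 together summed to 5246 and 5592 CPM in EV-RV and to 4578 and 4526 in the IRF4-RV libraries. Of them *Vpreb1* (log2 fold change -1.49, adjusted p = 3.82e-05) and *Igll1* (-1.30, adjusted p = 5.95e-05), which encode the surrogate light chain, fell and *Ptprc* rose (0.53, adjusted p = 0.0109); the part of this shift in the results below was not tested. Markers of T and NK cells summed to at most 1.79 CPM, granulocyte markers to at most 0.165 and erythroid markers to 12.2 to 15.9. Macrophage markers summed to 0.899 and 0.856 CPM in EV-RV and 7.68 and 6.43 with IRF4-RV, nearly all of it *Mrc1*, while *Adgre1*, *Cd163* and *Marco* were at 0 in every library. The sum of the 10 stromal cell markers stood apart in 1 library: 47.7 and 89.5 CPM with EV-RV, 47.3 in IRF4-RV 1 and 222 in IRF4-RV 2. *Col1a1*, *Col1a2*, *Col3a1* and *Cxcl12* made up nearly all of it. *Lum* and *Dcn* were at or near 0, and no stromal marker was at 0 in all libraries. *Lepr* did not follow the sum, with 0 and 14 counts in EV-RV and 1 and 0 in IRF4-RV cells. Fewer cells of a type and less RNA per cell cannot be told apart in such bulk libraries.

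Of the 9 members tested, *Trp53inp1*, *Btg2* and *Mdm2* rose and *Phlda3* fell with IRF4-RV, and the other 5 did not pass the test. Across all genes tested 29.7% were called, 16.0% higher and 13.7% lower, so 3 of 9 higher and 1 of 9 lower are to be read against a comparison in which many genes moved. The median log2 fold change of the members was -0.01, beside 0.01 for all genes tested. In 7 of the 9 the groups did not overlap in CPM, 3 of them higher and 4 lower with IRF4-RV, while 61.3% of all genes tested did not overlap, 31.3% higher and 29.9% lower. The log2 fold changes of the members ran from -0.85 for *Phlda3* to 2.36 for *Trp53inp1*.

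**Figure D1:**
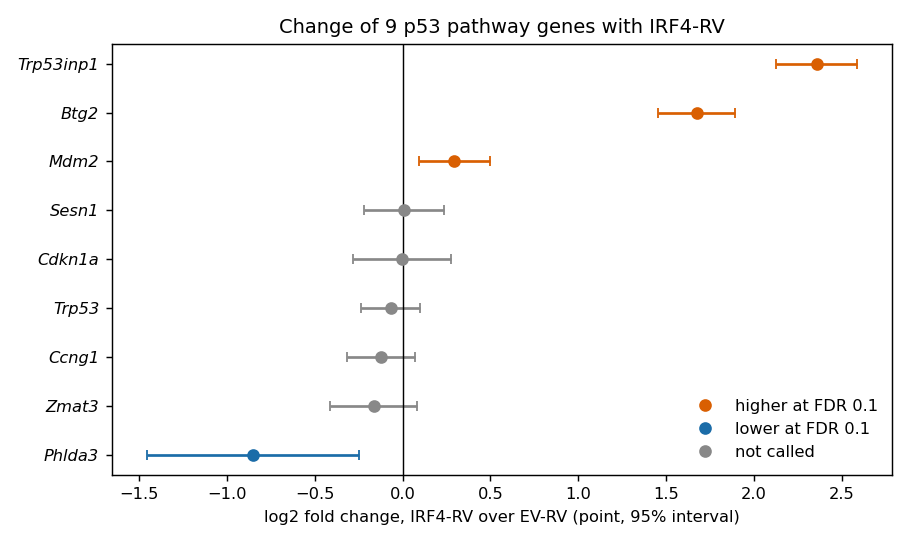
Log2 fold change, IRF4-RV over EV-RV, of the 9 members tested, with points for the edgeR estimate, bars for its 95% interval and color for the call at an FDR of 0.1. *Trp53inp1* at 2.36 and *Btg2* at 1.67 lie far to the right of the others, *Mdm2* lies just above 0, and *Phlda3* at -0.85 has the widest interval.

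*Trp53* itself (ENSMUSG00000059552, chr11:69580359-69591873, GRCm38, plus strand) was measured at 208 and 212 CPM in EV-RV and 205 and 195 in IRF4-RV cells. Both IRF4-RV libraries were lower, by a margin of a few CPM, and the groups did not overlap. The log2 fold change was -0.07 (SE 0.0714, 95% interval -0.23 to 0.10, adjusted p = 0.551), so the interval excludes a change of the size seen in the members that rose. Per exon length *Trp53* was the highest of the members in both groups, at 51.9 ± 0.579 and 49.5 ± 1.75 RPKM (CPM per kilobase of exon; SD, n = 2).

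*Mdm2* (ENSMUSG00000020184, chr10:117688875-117710758, minus strand), the ubiquitin ligase that degrades p53, was at 44.7 and 48.4 CPM in EV-RV and 58.3 and 55.9 with IRF4-RV. Both IRF4-RV libraries were above both controls. The rise was small, 1.23-fold, with a log2 fold change of 0.30 (SE 0.0862, 95% interval 0.10 to 0.50, adjusted p = 0.0444, edgeR with Benjamini-Hochberg adjustment). It lost the call when library sizes were used without TMM factors (0.21, adjusted p = 0.112) and when EV-RV 1, IRF4-RV 1 or IRF4-RV 2 was left out (adjusted p = 0.186, 0.266 and 0.105). Its relative *Mdm4*, which inhibits p53 without degrading it, also rose by 0.30 on the log2 scale (45.8 ± 0.568 to 56.5 ± 4.58 CPM, adjusted p = 0.0482) and was called under 6 of 10 alternatives. Within a library *Mdm4* counts were 1.02 and 0.954 times those of *Mdm2* in EV-RV and 1.02 and 0.953 times in IRF4-RV cells. This count ratio overlapped between groups. It is not corrected for exon length: per exon length *Mdm4* stood at 3.10 and *Mdm2* at 9.16 RPKM in EV-RV.

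Beyond MDM2, the 23 regulators of p53 listed were all tested. Of these, 6 rose, 3 fell and 14 did not pass, with a median log2 fold change of 0.06. Over all genes tested, 16.0% were called higher and 13.7% lower. *Cdkn2a* rose the most, from 60.4 to 87.7 CPM (0.54, adjusted p = 0.00775); the locus encodes both p16 and ARF, which holds MDM2 back, and gene counts do not separate them. The ubiquitin ligase genes *Cop1* (0.41, adjusted p = 0.00813) and *Rchy1* (0.33, adjusted p = 0.0319), whose products also degrade p53, rose. *Huwe1*, another ligase gene of the list, did not pass the test (-0.10, adjusted p = 0.688, edgeR). The regulators that rose also include *Rpl5* (0.25, adjusted p = 0.0435, edgeR) and *Rpl11* (0.22, adjusted p = 0.0909, edgeR). *Ppp1r13l*, encoding the p53 inhibitor iASPP, fell from 4.25 to 2.60 CPM (-0.71, adjusted p = 0.0421), but its call was lost with DESeq2 (adjusted p = 0.111), without EV-RV 1 (0.174) and without IRF4-RV 2 (0.144). The checkpoint kinase gene *Chek1* fell (-0.42, adjusted p = 0.0180), as did *Usp10*, which encodes a p53 deubiquitinase (-0.37, adjusted p = 0.0108).

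*Trp53inp1* (ENSMUSG00000028211, chr4:11156431-11174379, plus strand) encodes a stress protein that promotes p53 phosphorylation, autophagy and cell death. It was measured at 44.2 and 47.7 CPM in EV-RV and 253 and 218 in IRF4-RV cells. The groups were far apart, and the lower IRF4-RV library was still several-fold above either control. The rise was 5.12-fold, with a log2 fold change of 2.36 (SE 0.0992, 95% interval 2.13 to 2.59, adjusted p = 5.79e-06), and it ranged from 2.22 to 2.47 when each library was left out in turn. Per exon length it moved from 7.10 ± 0.375 RPKM, seventh among the members, to 36.4 ± 3.85 RPKM, second after *Trp53*. Counts of *Trp53inp1*, not corrected for exon length, were 0.212 and 0.225 times those of *Trp53* in EV-RV and 1.23 and 1.11 times in IRF4-RV cells. The relative *Trp53inp2*, a gene of autophagy, rose as well, from 6.86 and 6.38 CPM to 17.7 and 16.5 (log2 fold change 1.37, adjusted p = 0.000184). *Trp53inp1* counts were 6.45 and 7.48 times those of *Trp53inp2* in EV-RV and 14.3 and 13.2 times in IRF4-RV cells, so the ratio was higher in both IRF4-RV libraries; an exact permutation test of 2 against 2 libraries cannot give a two-sided p below 0.333, the value obtained here.

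*Btg2* (ENSMUSG00000020423, chr1:134075170-134079120, minus strand) encodes an antiproliferative protein that recruits the CCR4-NOT deadenylase to mRNAs and restrains cycling in B-cell precursors. Its level was 25.9 and 26.0 CPM in EV-RV and 88.1 and 77.8 with IRF4-RV. The controls were nearly equal and both IRF4-RV libraries were well above them. The rise was 3.19-fold (log2 fold change 1.67, SE 0.0944, 95% interval 1.46 to 1.89, adjusted p = 2.47e-05) and lay between 1.56 and 1.77 with each library left out. The rise was shared by the rest of the BTG/TOB family that could be tested. *Btg1* rose from 37.0 and 36.9 CPM to 100.5 and 99.8 (1.44, adjusted p = 2.02e-05). *Btg3* (0.86, adjusted p = 0.00407), *Tob2* (0.68, adjusted p = 0.00101) and *Tob1* (0.45, adjusted p = 0.0432) rose less.

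**Figure D2:**
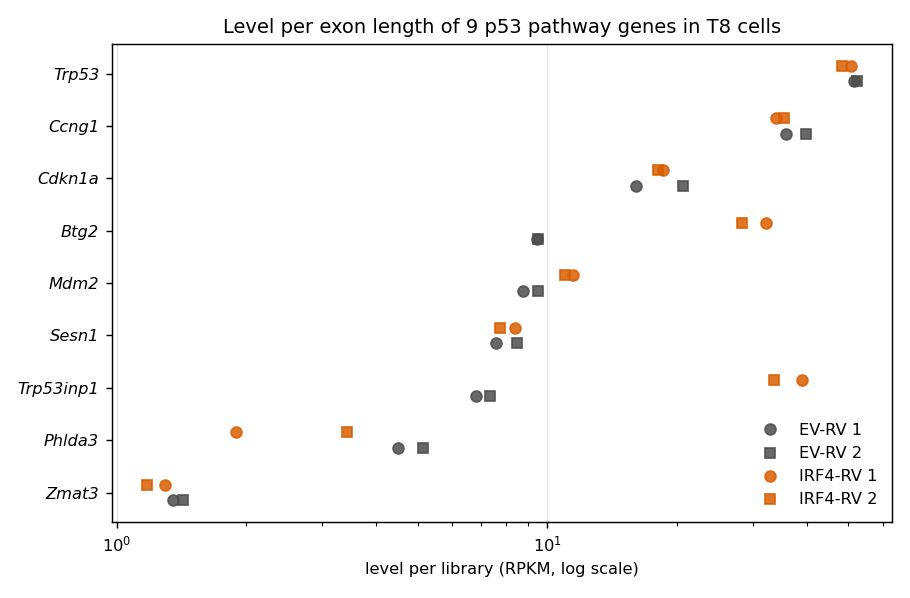
Level of 9 members in each library, in RPKM (CPM divided by exon length in kilobases) on a log axis, EV-RV in gray and IRF4-RV in orange, with circles for replicate 1 and squares for replicate 2. *Eda2r*, with at most 13 counts, is left out. The orange points of *Trp53inp1* and *Btg2* lie well to the right of the gray ones, those of *Phlda3* lie to the left and apart from each other, and the other genes' points lie close together.

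*Cdkn1a* (ENSMUSG00000023067, chr17:29090976-29100727, plus strand) encodes p21, the inhibitor of cyclin-dependent kinases through which p53 arrests the cell cycle. It was measured at 57.1 and 73.5 CPM in EV-RV and 66.0 and 64.1 with IRF4-RV. Both IRF4-RV values lay between the 2 controls. The log2 fold change was -0.01 (SE 0.120, 95% interval -0.28 to 0.27, adjusted p = 0.982), an interval that leaves room for a change of up to about that size either way. Its direction turned to 0.19 without EV-RV 2, the higher control. An unconfirmed gene model on the opposite strand of the locus held 5 to 7 counts per library. In EV-RV, *Cdkn1a* counts exceeded those of *Trp53inp1*, at a ratio of *Trp53inp1* to *Cdkn1a* of 0.774 and 0.649, and in IRF4-RV the ratio was 3.83 and 3.40. For *Btg2* over *Cdkn1a* it went from 0.454 and 0.354 to 1.34 and 1.21. In both cases the IRF4-RV libraries were higher than both controls (exact permutation p = 0.333, the smallest that this design allows).

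The p21 relative *Cdkn1b*, encoding p27, rose from 39.4 and 34.8 CPM to 57.3 and 51.3 (log2 fold change 0.55, adjusted p = 0.00716). All 26 listed cell cycle genes that p53 is known to repress through p21 and the DREAM complex were tested. Of them 10 rose, 2 fell and 14 did not pass, and the median was 0.17. The shares over all genes tested were 16.0% higher and 13.7% lower. The centromere histone gene *Cenpa* rose from 212 to 311 CPM (0.55, adjusted p = 0.00421). *Nusap1*, a spindle gene, rose by 0.53 (adjusted p = 0.00229), *Cdc25c*, a phosphatase of mitotic entry, by 0.45 (adjusted p = 0.0197) and *Kif23*, a kinesin of cytokinesis, by 0.41 (adjusted p = 0.0264). The S-phase genes *E2f1* (-0.37, adjusted p = 0.0319) and *Mcm5* (-0.31, adjusted p = 0.0242) fell. With library sizes alone the counts of this list were 6 higher and 4 lower, and without IRF4-RV 1 they were 5 and 0, with 1 gene lower at an unadjusted p under 0.05 (edgeR).

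Cyclin G1, the product of *Ccng1* (ENSMUSG00000020326, chr11:40748552-40755311, minus strand), recruits phosphatase 2A and feeds back on MDM2. *Ccng1* stood at 125 and 140 CPM in EV-RV and 120 and 124 in IRF4-RV cells. Both IRF4-RV libraries were below both controls, the gap being about 1 CPM, and the log2 fold change was -0.12 (SE 0.0829, 95% interval -0.32 to 0.07, adjusted p = 0.340). With library sizes alone it was called lower (-0.21, adjusted p = 0.0718). *Ccng2*, a relative known to be induced by FOXO factors, rose from 38.8 and 35.4 CPM to 99.0 and 94.3 (1.38, adjusted p = 3.53e-05, edgeR). Its counts relative to *Ccng1* went from 0.309 and 0.253 to 0.828 and 0.759. Whether FOXO factors took part was not tested.

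Sestrins restrain mTORC1 and oxidative damage. *Sesn1* (ENSMUSG00000038332, chr10:41809935-41908424, plus strand) was at 30.3 and 33.8 CPM in EV-RV and 33.6 and 30.9 with IRF4-RV. The groups overlapped fully, with a log2 fold change of 0.01 (SE 0.0992, 95% interval -0.22 to 0.24, adjusted p = 0.965) whose sign depended on the setting. *Sesn2*, also a p53 target, did not pass the test (0.04). *Sesn3*, a FOXO target, rose from 38.3 and 33.7 CPM to 66.0 and 60.9 (0.82, adjusted p = 0.000968, edgeR). The part of FOXO factors in this rise was not tested. *Sesn3* counts were 1.26 and 0.996 times those of *Sesn1* in EV-RV and 1.97 and 1.97 times in IRF4-RV cells.

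**Figure D3:**
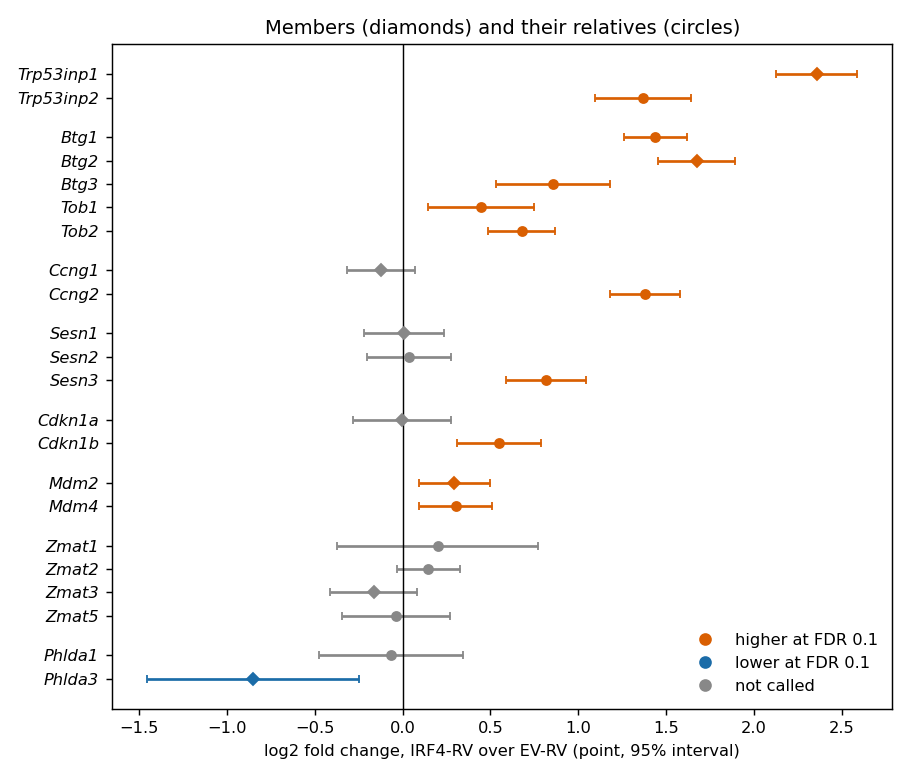
Log2 fold change with 95% interval of members (diamonds) and tested relatives (circles), grouped by gene family and colored by the call at an FDR of 0.1. *Trp53* and the relative *Tnfrsf19*, which fell (-0.73), are not shown. All BTG/TOB and TP53INP genes shown lie to the right of 0, *Mdm2* and *Mdm4* lie at 0.30, *Ccng2*, *Sesn3* and *Cdkn1b* lie at 1.38, 0.82 and 0.55 with the other genes of their families near 0, and no circle of the ZMAT and PHLDA families was called.

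*Zmat3* (ENSMUSG00000027663, chr3:32334792-32366014, minus strand), which encodes an RNA-binding zinc finger protein that takes part in growth suppression by p53, was at 15.4 and 16.3 CPM in EV-RV and 14.9 and 13.5 with IRF4-RV. The IRF4-RV values were both lower, by less than a CPM at the nearest. The difference did not pass the test (log2 fold change -0.17, SE 0.108, 95% interval -0.42 to 0.08, adjusted p = 0.325), nor did those of *Zmat1* (0.20), *Zmat2* (0.15) and *Zmat5* (-0.04). Over all relatives, 15 of 22 were tested, 9 rose, 1 fell and 5 did not pass, with a median of 0.45. The lists overlap: *Mdm4* also counts among the regulators of p53, and *Sesn2* among the targets in arrest, repair and metabolism. Among all genes tested, 16.0% were called higher and 13.7% lower. The relative that fell was *Tnfrsf19*, a TNF receptor family gene related to *Eda2r*, from 74.9 to 45.2 CPM (-0.73, adjusted p = 0.000796).

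*Phlda3* (ENSMUSG00000041801, chr1:135766119-135769136, plus strand) encodes a small pleckstrin homology protein that keeps AKT off the membrane. Its level was 7.01 and 8.02 CPM in EV-RV and 2.95 and 5.36 with IRF4-RV, from 234, 253, 100 and 195 counts. Both IRF4-RV libraries were lower than both controls, but IRF4-RV 2 lay closer to EV-RV 1 than to IRF4-RV 1. The log2 fold change was -0.85 (SE 0.259, 95% interval -1.45 to -0.25, adjusted p = 0.0511, edgeR with Benjamini-Hochberg adjustment), so the call holds at an FDR of 0.1 and not at 0.05. It was -1.34 without IRF4-RV 2 (adjusted p = 6.05e-07), -0.51 without IRF4-RV 1 (adjusted p = 0.0880) and -0.75 without EV-RV 2, where the call was lost (adjusted p = 0.161). Its relative *Phlda1* did not pass the test (-0.07).

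*Eda2r* (ENSMUSG00000034457, chrX:97333840-97377216, minus strand), a receptor of the TNF receptor family for ectodysplasin A2, had 3 and 1 counts in EV-RV and 0 and 13 in IRF4-RV cells. Only IRF4-RV 2 was above the 3 counts that a reading of 0 allows, which is 0.0824 to 0.0952 CPM here, and the gene was not tested. That library is also the one with the raised sum of stromal cell markers, 4.69-fold above IRF4-RV 1. *Plk2*, another p53 target, had 2 and 4 counts in EV-RV and 1 and 16 in IRF4-RV cells. The part of stromal RNA in *Eda2r*, *Plk2* and *Phlda3* was not tested. EV-RV 1 and IRF4-RV 1 held 47.7 and 47.3 CPM of summed stromal markers, and *Phlda3* stood there at 7.01 and 2.95 CPM. EV-RV 2 and IRF4-RV 2 held 89.5 and 222 CPM, with *Phlda3* at 8.02 and 5.36. Each pair holds 1 library per group and was not tested.

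**Figure D4:**
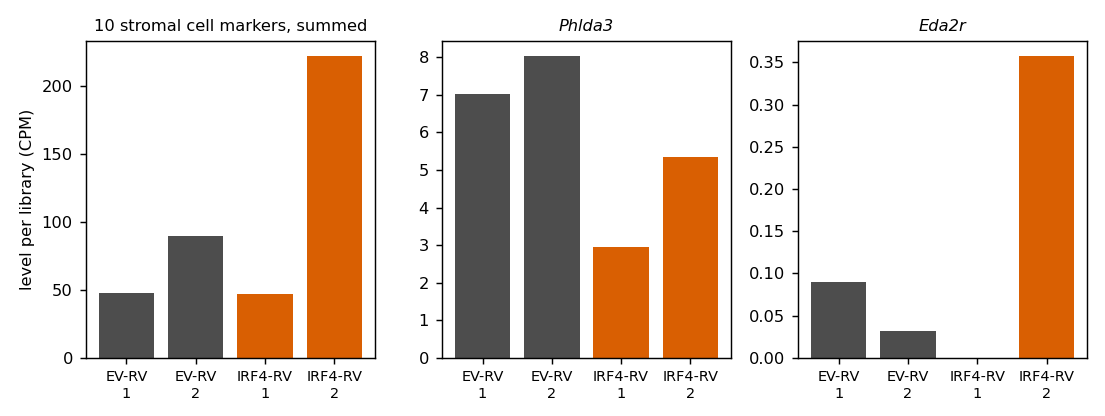
Level per library in CPM of 10 stromal cell markers summed, of *Phlda3* and of *Eda2r*, as bars from 0, each panel on its own scale. IRF4-RV 2 holds 222 CPM of stromal markers and the most *Eda2r*, and its *Phlda3* bar lies between that of IRF4-RV 1 and those of the controls.

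Other p53 targets were called in both directions, beside 16.0% of all genes tested called higher and 13.7% called lower. Of 11 apoptotic targets 9 were tested; 2 rose, 3 fell and 4 did not pass, with a median of -0.25. *Pmaip1*, encoding the BH3-only protein NOXA, rose from 9.46 to 15.4 CPM (log2 fold change 0.71, adjusted p = 0.00890), and *Apaf1*, the apoptosome scaffold, rose by 0.34 (adjusted p = 0.0272). *Bbc3*, encoding the BH3-only protein PUMA, fell from 11.9 to 8.45 CPM (-0.49, adjusted p = 0.0194). The nuclease gene *Aen* (-0.40, adjusted p = 0.0152) and *Siva1* (-0.41, adjusted p = 0.0329) also fell. The values for *Bax* were 73.8 and 61.9 CPM on average, a difference that did not pass (-0.25, adjusted p = 0.123). *Perp* was at 0 in every library. The paper reports apoptosis of leukemia cells given IRF4, and induction of an apoptotic gene set. The RNA came from the cells still viable a day after transduction.

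Among 29 targets in arrest, repair and metabolism, 26 were tested. Of these, 7 rose, 4 fell and 15 did not pass, with a median of 0.03, beside 16.0% higher and 13.7% lower over all genes. The cytokine gene *Lif* rose the most, from 2.91 to 9.08 CPM (1.64, adjusted p = 0.00101). *Gadd45a*, a growth arrest gene, rose by 0.70 (adjusted p = 0.0283), the carbonyl reductase gene *Dcxr* by 0.48 (adjusted p = 0.0388) and *Tnfaip8*, an inhibitor of apoptosis, by 0.45 (adjusted p = 0.00429). *Ephx1*, an epoxide hydrolase (-0.37, adjusted p = 0.0108), *Fdxr*, the ferredoxin reductase of mitochondria (-0.36, adjusted p = 0.0227), *Triap1* (-0.28, adjusted p = 0.0843) and the DNA repair gene *Xpc* (-0.27, adjusted p = 0.0759) fell. *Xpc* kept its call under 4 of 10 alternatives and *Triap1* under 6, losing it with DESeq2 (adjusted p = 0.135) and without EV-RV 2, IRF4-RV 1 or IRF4-RV 2 (0.332, 0.197 and 0.195).

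**Figure D5:**
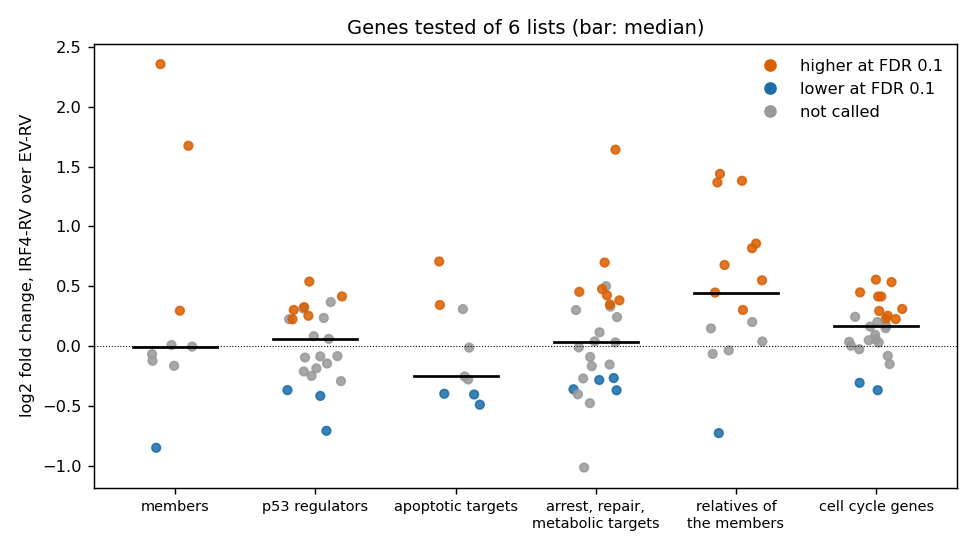
Log2 fold change, IRF4-RV over EV-RV, of each gene tested in 6 lists, 1 point per gene and list, colored by the call at an FDR of 0.1, with a bar at the list's median. *Mdm4* and *Sesn2* belong to the relatives and to another list, and are drawn in each. Medians run from -0.25 for the apoptotic targets to 0.45 for the relatives of the members. Every list holds genes called in both directions, and over all genes tested 16.0% were called higher and 13.7% lower.

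In order of level per exon length, the EV-RV cells held *Trp53* (51.9 RPKM), *Ccng1* (37.8), *Cdkn1a* (18.4), *Btg2* (9.47), *Mdm2* (9.16), *Sesn1* (8.05), *Trp53inp1* (7.10), *Phlda3* (4.82), *Zmat3* (1.39) and *Eda2r* (0.0103). Only *Btg2* and *Mdm2* overlapped between neighbors. With IRF4-RV the order was *Trp53* (49.5 RPKM), *Trp53inp1* (36.4), *Ccng1* (34.7), *Btg2* (30.2), *Cdkn1a* (18.3), *Mdm2* (11.2), *Sesn1* (8.09), *Phlda3* (2.66), *Zmat3* (1.24) and *Eda2r* (0.0303), and *Trp53inp1* and *Ccng1* overlapped. *Trp53inp1* and *Btg2* changed places with their neighbors while the rest kept their order among themselves.

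Over the 4 libraries, the genes whose centered log2 CPM profile came closest to that of *Trp53inp1* were *Klrb1f*, *Tmem184b* and *Lsp1*, with root mean square differences of 0.0444, 0.0679 and 0.0810. *Tmem184b* stood at 18.1 CPM in EV-RV and 95.4 with IRF4-RV, and *Lsp1* at 12.5 and 59.4, while *Klrb1f* was low, at 0.339 and 1.64. The closest to *Phlda3* were *Nupr1l*, *Ppp1r26* and *Cabp1* (0.0601, 0.0685 and 0.0891), at averages of 0.197 to 2.05 CPM over both groups. With 4 libraries in 2 groups, many genes of a like fold change come close to each other by this measure.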

How the data were processed

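T8 cells transduced with EV-RV or IRF4-RV were analyzed as 2 libraries per group, grouped by the condition and title in the labels. Titles and tissue name T8, whereas the protocol text names T11. The authors deposited raw counts per gene (whole numbers, not normalized), made with STAR 2.4.0j on GRCm38 and featureCounts per the labels. Settings for strand and multiply mapped reads are not given in the sources used here, so overlapping genes are uncertain. Of 55359 Ensembl identifiers, 52083 were matched to GENCODE M21 for symbols, coordinates and exon lengths. Unmatched rows held 0.203% to 0.486% of counts and stayed in the fit.

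Genes passing filterByExpr were tested in R 4.3.3 with the edgeR 4.0.16 quasi-likelihood F test, TMM factors (1.054 and 1.010 for EV-RV, 0.975 and 0.964 for IRF4-RV) and Benjamini-Hochberg adjustment over all 14637 genes, at an FDR of 0.1. Errors of fold changes are SE and 95% intervals from this fit. RPKM were computed from CPM and exon length. Promoter windows are from RefSeq. Ratios used an exact permutation test.

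The members and gene lists were chosen with earlier results of these data known. Besides the members, the genes named are *Irf4*, up to 4 called genes with the largest rise and up to 4 with the largest fall per list (mean of at least 20 counts), called relatives, and the 3 genes closest to the member with the largest rise and fall. *Sesn2*, *Phlda1*, *Zmat1*, *Zmat2*, *Zmat5*, *Bax*, *Perp*, *Plk2*, *Vpreb1*, *Igll1* and *Ptprc* were named after their values were seen. The same holds for *Rpl5*, *Rpl11*, *Huwe1*, *Lepr*, *Col1a1*, *Col1a2*, *Col3a1* and *Cxcl12*. On simulated data with 14411 genes, 88.2% of 200 genes changed by 1 on the log2 scale were recovered over 3 simulations and 12.0% of calls were false, above the FDR set. The simulation gave every gene the same dispersion and changed far fewer genes than were called here. Its rates therefore do not carry over to the smaller changes reported. Replicates differed by more than sampling noise (chi-square per degree of freedom 14.1 and 13.1). Alternatives were DESeq2 1.42.0, its size factors, library sizes alone, other filters, FDR 0.05, a replicate block and each library left out.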

Additional observations from a re-analysis of the deposited data

How the results depend on the processing

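Of 175 counts and medians recomputed under the alternatives, 152 stayed within 1.5 times or 1 SD of the value given. With library sizes alone (37.8% of calls higher, against 53.8%; median of all genes -0.08), 2 members, 6 regulators, 5 apoptotic targets and 4 cell cycle genes were called lower, 6 cell cycle genes higher, and the members' median was -0.0923. At an FDR of 0.05, 0 members and 2 arrest, repair and metabolic targets were lower by edgeR, with 1 member lower at an unadjusted p under 0.05. DESeq2 called 1 member lower at an FDR of 0.1 and also at 0.05. Samples share only a replicate number (correlation of same-numbered deviations 0.284, 2 pairs); with the replicate block, 3426 genes were called higher and 2968 lower against 2340 and 2009, with 8 regulators and 5 apoptotic targets lower. With each library left out, calls ranged from 2 to 3 members higher and 0 to 1 lower (0 without EV-RV 2), 2 to 6 regulators higher (2 without IRF4-RV 1, 3 without EV-RV 1) and 2 to 6 lower (6 without EV-RV 2), 1 to 2 apoptotic targets higher (1 without IRF4-RV 1), 2 to 4 arrest, repair and metabolic targets lower (2 without EV-RV 2, IRF4-RV 1 or IRF4-RV 2), and 5 to 10 cell cycle genes higher and 0 to 3 lower (5 and 0 without IRF4-RV 1). The members' median then ranged from -0.0880 to 0.14. *Cdkn1a* turned to 0.0038 with the replicate block, 0.19 without EV-RV 2 and 0.02 without IRF4-RV 2 (range -0.18 to 0.19 with each library left out), and *Sesn1* to -0.0810 with library sizes alone, -0.0068 with a filter of 1 CPM in 2 libraries, -0.0769 without EV-RV 1 and -0.0733 without IRF4-RV 1 (range -0.0769 to 0.0903); neither was called anywhere. The cause was not tested. *Trp53inp1* and *Btg2* were called higher under all 10 alternatives refitted. The 35 other listed genes gave 350 values, of which 319 kept direction and call and 31 lost the call. Beside *Mdm4*, *Ppp1r13l*, *Triap1* and *Xpc*, these were *Apaf1*, *E2f1*, *Fdxr* and *Mcm5* without IRF4-RV 1 (adjusted p = 0.249, 0.181, 0.102 and 0.139), *Rchy1* without EV-RV 1 or IRF4-RV 1 (0.124 and 0.194), *Kif23* and *Siva1* without EV-RV 2 (0.103 and 0.138) or IRF4-RV 1 (0.128 and 0.114), *Dcxr* without EV-RV 1 or IRF4-RV 2 (0.174 and 0.117), and *Tob1* with library sizes alone or without EV-RV 2 (0.123 and 0.170). With 2 libraries per group, the intervals of members not called still allow changes of up to about 0.42 on the log2 scale.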
